A study of Mus musculus with 6 samples.

Results

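Interferon-stimulated genes are genes whose transcription rises when cells bind interferon, and 49 of them were followed by gene symbol in primary mouse embryonic fibroblasts with and without the histone acetyltransferase HAT1. All 49 were found among the 17512 genes of the count table, and all 49 were among the 14773 genes that passed the filter on low counts. No treatment is named in the labels. The cells were primary cultures (pMEFs) of strain background C57bl6, taken from embryos freed of their internal organs and grown in medium with fetal bovine serum. Lines 36, 47 and 78 were HAT1 WT, and lines 33, 41 and 72 were HAT1 KO, with 3 lines per genotype. No source used here tells which lines shared a litter, so p-values measure the spread between these 6 cultures.

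Interferons are secreted proteins that signal through paired receptors, the kinases JAK1, JAK2 and TYK2, and the STAT transcription factors. A complex that holds STAT2 and IRF9 binds the interferon-stimulated response element (ISRE), while STAT dimers bind the gamma-activated sequence (GAS). The induced proteins sense foreign nucleic acids, block viral replication or present antigen, and many are also expressed at a low tonic level in cells not exposed to added interferon.

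Levels are given as CPM, counts set to a common library size, with TMM (the trimmed mean of M-values) as the scaling between libraries. The libraries held 67720628 to 98786746 counts. Hat1 itself was at 17.4, 23.0 and 20.1 CPM in WT lines 36, 47 and 78 and at 10.2, 10.0 and 10.3 CPM in KO lines 33, 41 and 72, so its transcript was lower in every KO line but still counted there (log2 fold change -0.99, SE 0.119, edgeR adjusted p = 0.0376). Fibroblast markers such as Col1a1 were abundant in every line, with a summed level of 57738.5 to 89813.9 CPM over 10 genes. Of these 10, Thy1 alone passed an unadjusted p of 0.05 in edgeR, lower in HAT1 KO (log2 fold change -0.31, edgeR adjusted p = 0.305). Of 5 tested endothelial markers 2 passed, Pecam1 (-1.63) and Cdh5 (-0.85), both lower and at 0.742 CPM or less in every line. Of all tested genes 8.77% were called lower. The 16 macrophage markers summed to 6372.3, 6715.8 and 5907.4 CPM in WT lines 36, 47 and 78 and to 3465.1, 3694.6 and 2874.7 CPM in KO lines 33, 41 and 72. Of these markers 15 of 16 passed an unadjusted p of 0.05, all of them lower in HAT1 KO (8.77% of all tested genes were called lower) and 7 with an adjusted p under 0.05 (0.528% of all tested genes), and none was at 0 in any line. In bulk RNA, fewer cells of a type and less RNA per cell cannot be told apart. Genes of the Y chromosome gave 13788, 12841 and 231 counts in WT lines 36, 47 and 78 and 4 to 8 counts in the KO lines, so the genotypes also differed in sex-linked expression.

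The DNA elements through which interferon acts can be read in the promoters. RefSeq promoter windows, from 250 bases before to 50 bases after an annotated start on GRCm38.p6, were found for 38 of the 49 genes and gave 45 windows. The ISRE core was searched as GAAANNGAAA on both strands and stood in 21 of these windows (46.7%), from 20 genes, against 3.44% of all 32851 windows. The GAS letters TTCNNNGAA, which read the same on both strands, stood in 11 windows (24.4%) against 8.3% of all windows, and 6 genes held both. A match describes the letters in the window and is not a measured binding site. The stretches below are 120 bases long, read 5′ to 3′ on the strand of the gene and end before its annotated start, with ISRE cores in capitals for the first 6 genes and the GAS letters in capitals for Irf1. They were chosen to show an ISRE in each of several roles, and the GAS of a transcription factor. The stretches lie at chr4:156200819-156200938 (minus strand) for Isg15, chr19:34640751-34640870 (plus) for Ifit1, chr5:120907526-120907645 (minus) for Oas1a, chr3:142530216-142530335 (plus) for Gbp7, chr11:58199436-58199555 (plus) for Igtp, chr7:104465194-104465313 (minus) for Trim30a and chr11:53769894-53770013 (plus) for Irf1.
Isg15: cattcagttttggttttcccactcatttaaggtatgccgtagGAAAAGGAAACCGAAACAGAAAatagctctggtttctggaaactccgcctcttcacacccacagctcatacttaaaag
Ifit1: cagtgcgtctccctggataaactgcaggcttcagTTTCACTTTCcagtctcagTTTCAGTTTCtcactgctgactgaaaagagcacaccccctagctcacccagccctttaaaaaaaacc
Oas1a: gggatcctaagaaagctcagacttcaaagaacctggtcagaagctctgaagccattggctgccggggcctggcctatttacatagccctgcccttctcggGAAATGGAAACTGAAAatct
Gbp7: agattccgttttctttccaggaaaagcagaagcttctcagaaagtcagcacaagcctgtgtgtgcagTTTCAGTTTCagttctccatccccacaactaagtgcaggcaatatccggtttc
Igtp: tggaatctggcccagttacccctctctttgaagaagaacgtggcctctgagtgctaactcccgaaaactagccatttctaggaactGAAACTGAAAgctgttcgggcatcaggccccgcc
Trim30a: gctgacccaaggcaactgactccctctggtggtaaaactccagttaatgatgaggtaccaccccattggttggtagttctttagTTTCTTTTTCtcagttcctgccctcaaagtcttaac
Irf1: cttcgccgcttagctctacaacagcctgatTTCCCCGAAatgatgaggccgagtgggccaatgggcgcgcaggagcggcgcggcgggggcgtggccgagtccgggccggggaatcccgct
The Isg15 stretch held 3 overlapping cores, of which the first began 78 bases before the RefSeq start. The Ifit1 stretch held 2 separate cores, the first beginning 104 bases before the RefSeq start, which lies beyond the end of the printed stretch. In Trim30a, the gene of this group with the most negative log2 fold change, a single core began 36 bases before the start.

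The comparison of genotypes asked whether loss of HAT1 changed these genes. Only 4 of the 49 passed an unadjusted p of 0.05 in edgeR's quasi-likelihood test, namely Trim30a, Parp14, Samd9l and Psmb9, and all 4 were lower in HAT1 KO. That is 8.16% of the group, against 14.6% of all tested genes called in either direction and 8.77% called lower, so the share called was near the background. None of the 49 passed an adjusted p of 0.05, against 0.528% of all tested genes, while 3 did with the DESeq2 Wald test (background 5.88%) and 3 with voom and sample quality weights (background 1.81%), namely Trim30a, Parp14 and Samd9l in each. By point estimate 36 of the 49 were lower in HAT1 KO (73.5%, against 48.5% of all tested genes), and the median log2 fold change was -0.155, against 0.0085 over all tested genes. With lane in the model 42 were lower and the median was -0.234, but WT line 36 was alone in its lane and could not inform that difference. With the lines of few Y-linked counts alone 25 were lower and the median was -0.0295. The macrophage markers were lower in the same 3 KO lines, and their part in the 4 calls was not tested.

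Trim30a encodes a tripartite-motif protein that dampens innate immune signalling, and lies at chr7:104409025-104465193 (minus strand, GRCm38). It was at 17.6, 18.8 and 18.1 CPM in WT lines 36, 47 and 78 and at 10.5, 9.16 and 6.90 CPM in KO lines 33, 41 and 72. Every KO line was below every WT line, and line 33 was the nearest to the WT lines. The log2 fold change was -1.04 (SE 0.162, unadjusted p = 0.000584, edgeR adjusted p = 0.0669).

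Parp14, at chr16:35832874-35871544 (minus strand), encodes an ADP-ribosyltransferase of the interferon response. In WT lines 36, 47 and 78 it was at 41.9, 48.8 and 44.7 CPM, and in KO lines 33, 41 and 72 at 32.4, 25.6 and 24.4 CPM. The genotypes did not overlap, and the order within HAT1 KO was that of Trim30a. The log2 fold change was -0.72 (SE 0.127, unadjusted p = 0.00115, edgeR adjusted p = 0.0858).

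Samd9l, at chr6:3372257-3399572 (minus strand), encodes an antiviral protein that restrains translation. It was at 35.8, 37.7 and 42.4 CPM in WT lines 36, 47 and 78 and at 24.4, 24 and 30.1 CPM in KO lines 33, 41 and 72. Here line 72, not line 33, was the highest of the KO lines, and again no KO line reached a WT line. The log2 fold change was -0.56 (SE 0.118, unadjusted p = 0.00276, edgeR adjusted p = 0.123).

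Psmb9, at chr17:34181987-34187764 (minus strand), encodes a catalytic subunit of the immunoproteasome, which cuts proteins into peptides for antigen presentation. It was at 2.78, 2.93 and 2.79 CPM in WT lines 36, 47 and 78 and at 2.32, 1.83 and 1.54 CPM in KO lines 33, 41 and 72. The lines did not overlap, with line 33 again closest to HAT1 WT. The log2 fold change was -0.58 (SE 0.207, unadjusted p = 0.0306, edgeR adjusted p = 0.293), and its unadjusted p rose to between 0.0708 and 0.0937 when any 1 line other than KO line 33 was left out. Its exons share 5.79% of their length with Tap1 on the other strand, and the kit does not mark strand.

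These 4 were the only members of the group whose KO lines all lay below all WT lines, which 12.4% of all tested genes did. Ifit2, which encodes an RNA-binding protein of infected cells, was the only member whose KO lines all lay above, against 9.59% of all tested genes. It was at 21.3, 22.4 and 22.6 CPM in WT lines 36, 47 and 78 and at 22.8, 24.4 and 23.6 CPM in KO lines 33, 41 and 72. The difference was small (log2 fold change 0.0943, SE 0.0715, edgeR adjusted p = 0.592).

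**Figure D1:**
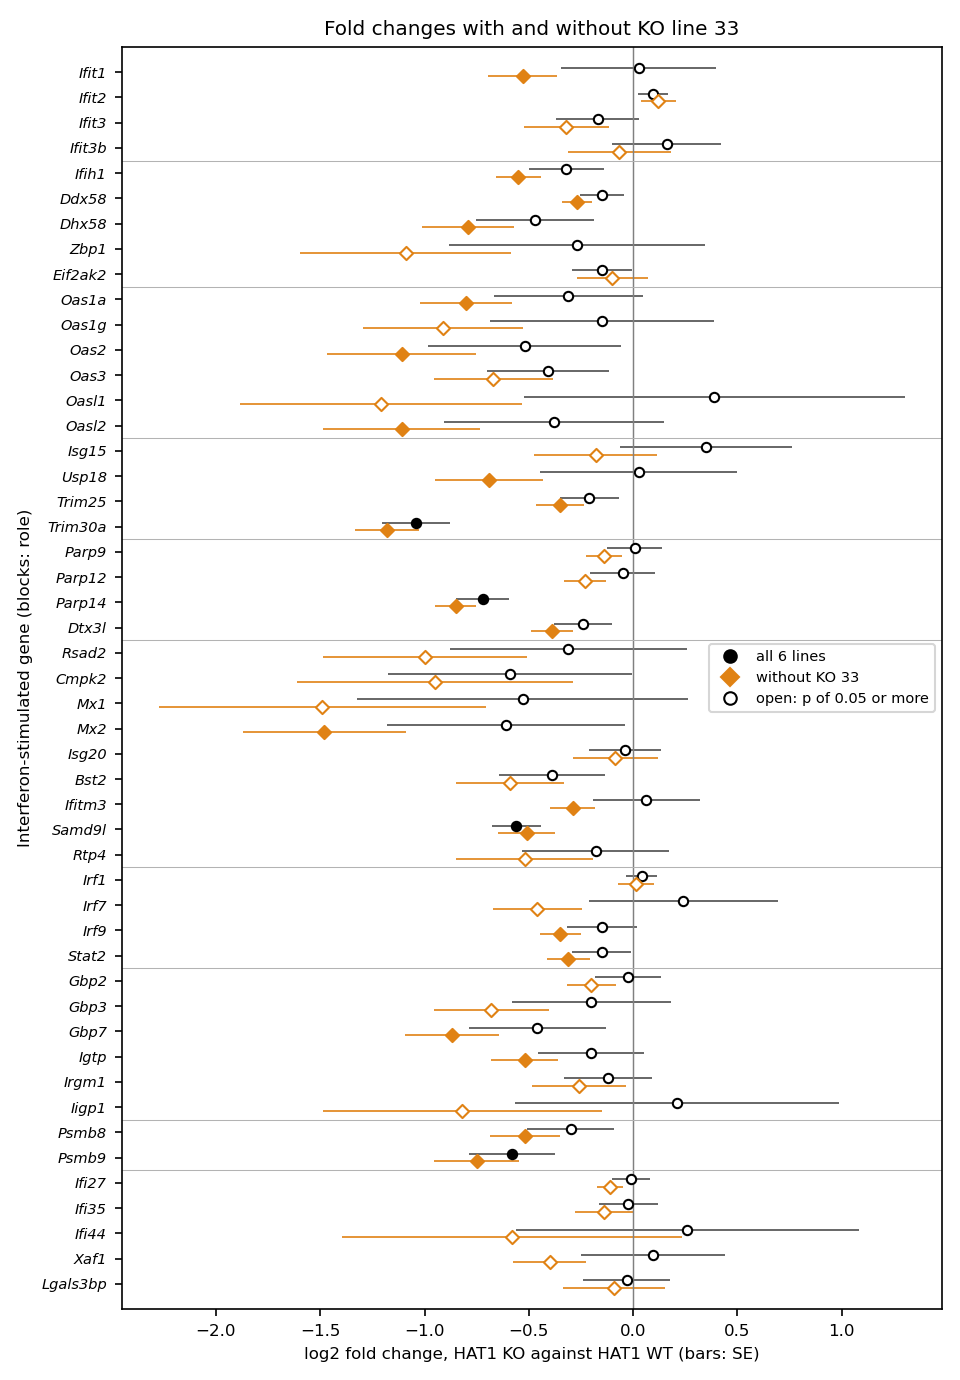
Log2 fold change of HAT1 KO against HAT1 WT (horizontal axis, bars show the SE) for the 49 interferon-stimulated genes (vertical axis, blocks by role), from all 6 lines (black circles) and without KO line 33 (orange diamonds), filled where the unadjusted p was under 0.05. With all lines 4 symbols are filled, and without line 33 there are 21, all to the left of 0. Line 33 was singled out for its high values in these genes.

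The KO lines did not behave alike. Each gene's log2 CPM was set against its mean over the 6 lines, and the median of these deviations over the 49 genes was 0.0577, 0.203 and 0.00317 in WT lines 36, 47 and 78 and 0.292, -0.326 and -0.408 in KO lines 33, 41 and 72. Over all tested genes the same medians lay between -0.00621 and 0.0125. Line 33 thus stood above every WT line by this median while lines 41 and 72 stood below all of them. That line 33 differs was seen in these values, so comparisons with it are a description. The p-values and calls of the fit without line 33 leave out a line chosen for its high values. They show how far that line sets the result, and are no separate evidence of a fall.

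**Figure D2:**
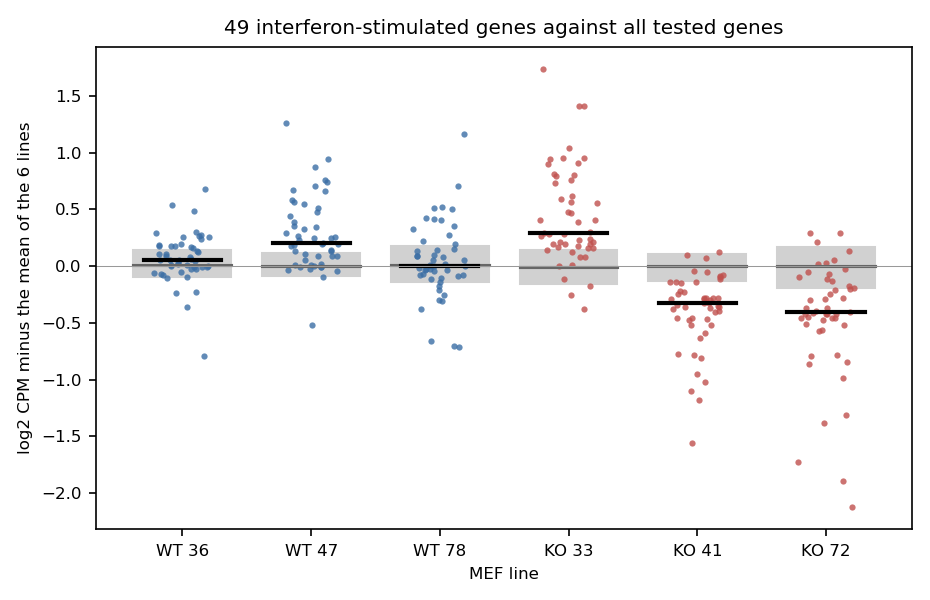
Deviation of log2 CPM from the mean of the 6 lines (vertical axis) by MEF line (horizontal axis), with a point for each of the 49 genes (blue WT, red KO), a black bar at their median, and a grey box over the interquartile range of all tested genes with a grey line at their median. The black bar is at 0.292 in KO 33 and at -0.326 and -0.408 in KO 41 and KO 72.

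Line 33 exceeded both other KO lines in 44 of the 49 genes (89.8%), against 32.5% of all tested genes. It was the highest of all 6 lines in 29 genes (59.2%, against 18.9%) and the lowest in 0. Line 72 was the lowest in 26 genes (53.1%, against 25.4% of all tested genes) and line 41 in 19 (38.8%, against 13.5%). These 2 lines together held the lowest value of 45 of the 49. In 33 genes (67.3%, against 17.2% of all tested genes) lines 41 and 72 both lay below all 3 WT lines, while line 33 lay above all WT lines in 30 genes (61.2%, against 30.9%). The median difference between line 33 and the mean of lines 41 and 72 was 0.6 on the log2 scale, against 0.00307 for all tested genes.

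The spread was therefore wider among these KO lines than among these WT lines. The median SD of log2 CPM between WT lines was 0.136 for the 49 genes and 0.135 for all tested genes. Between KO lines it was 0.385 for the 49 genes and 0.187 for all tested genes. The KO lines were more spread than the WT lines in 46 of the 49 genes (93.9%, against 64.8%). Pooled within genotypes, the median SD of the 49 genes was 0.341 with all lines and 0.233 without line 33. Over all tested genes it was 0.179 and 0.175. Without any other single line the pooled value of the 49 genes lay between 0.317 and 0.376. The range from the lowest to the highest line ran from 0.118 for Irf1 to 3.53 for Iigp1, with a median of 0.999, against 0.544 for all tested genes.

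**Figure D3:**
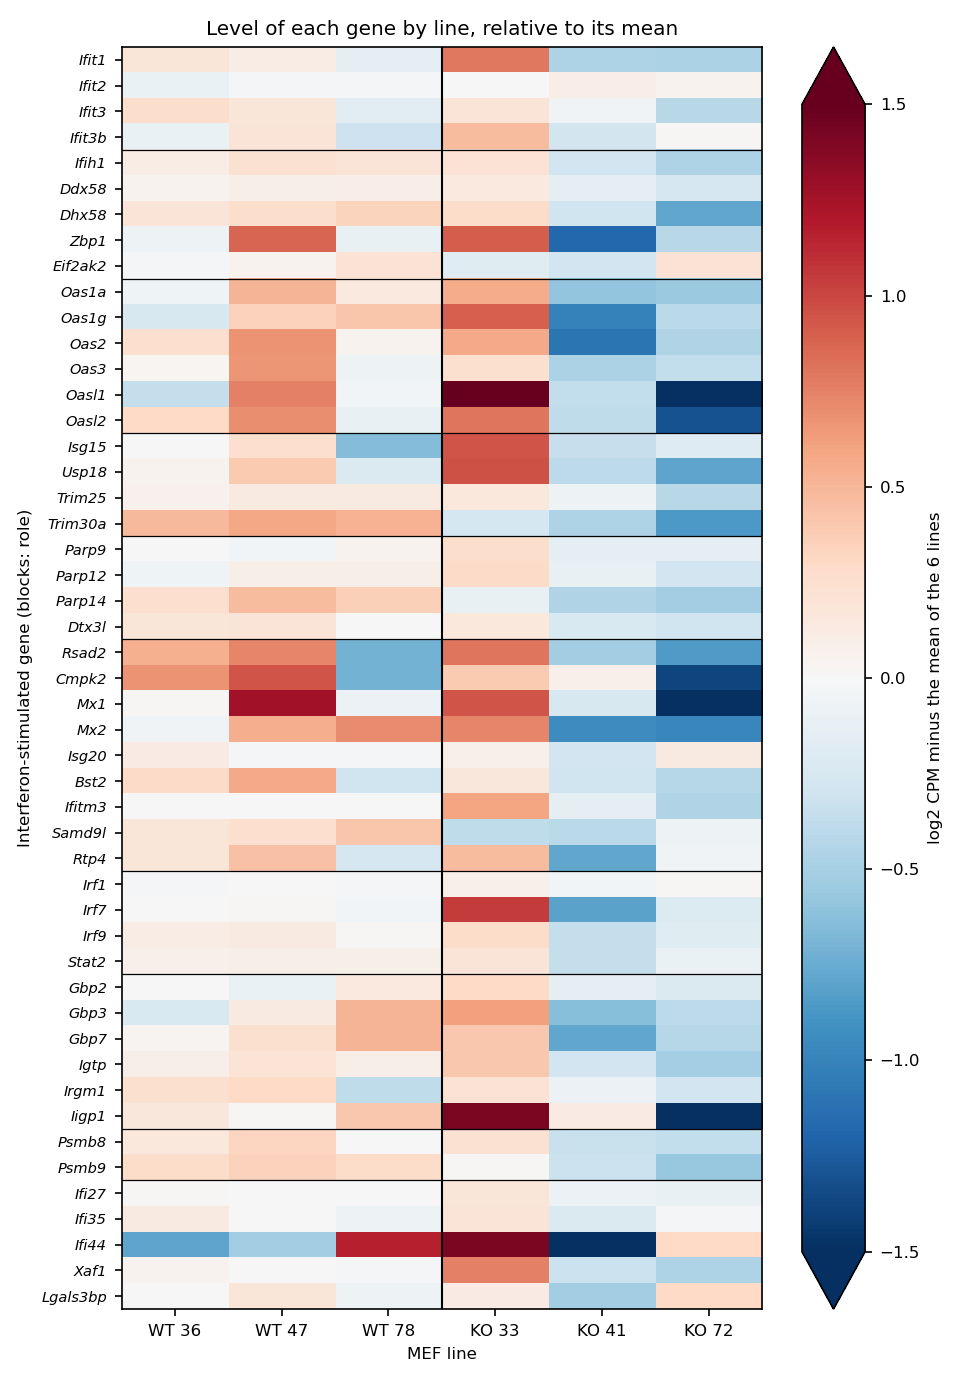
Log2 CPM minus the mean of the 6 lines (colour, red above and blue below the mean, saturated beyond 1.5) for each of the 49 genes (rows, in blocks by role) in each MEF line (columns). The column of KO 33 is mostly red, those of KO 41 and KO 72 are mostly blue, and the exceptions include Ifit2, Eif2ak2 and Samd9l.

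When lines were left out in turn, leaving out line 33 changed the count the most. Without it 21 of the 49 genes passed an unadjusted p of 0.05, all lower in HAT1 KO (42.9%, against 8.09% of all tested genes called lower in that fit), and the median log2 fold change was -0.522. Still 0 of the 21 passed an adjusted p of 0.05 in edgeR (background 0%), and the smallest adjusted p was 0.0942, for Parp14. Leaving out any other line gave 3 or 4 called genes, all lower, beside 6.11% to 9.47% of all tested genes called lower, with medians from -0.172 to -0.0209. Because line 33 was singled out for its high values in these genes, the count without it shows how far 1 line sets the result and is no separate evidence of a fall.

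Among the sensors of foreign nucleic acids, 5 of 5 genes had a negative estimate (48.5% of all tested genes did) and 0 passed the test, while 3 of 5 did without line 33, where 8.09% of all tested genes were called lower. Ddx58, which encodes the RNA sensor RIG-I, had the highest CPM of this role. It was at 49.4, 50.7 and 51.0 CPM in WT lines 36, 47 and 78 and at 52.5, 43.2 and 40.1 CPM in KO lines 33, 41 and 72. Line 33 lay just above the tightly grouped WT lines and the other KO lines lay below them (log2 fold change -0.15, SE 0.107, edgeR adjusted p = 0.559). Without line 33 the log2 fold change was -0.27 for Ddx58 (SE 0.0733), -0.55 for Ifih1 (the sensor MDA5, SE 0.107) and -0.79 for Dhx58 (the sensor LGP2, SE 0.221), all with an unadjusted p under 0.05 and edgeR adjusted p-values of 0.27, 0.169 and 0.293. Since line 33 was left out for its high values, these calls are no separate evidence of a fall. Eif2ak2, the kinase PKR that halts translation on double-stranded RNA, departed from the pattern. It was highest in WT line 78 at 45.2 CPM and in KO line 72 at 45.0 CPM, against 34.3 CPM in line 33.

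The oligoadenylate synthetase family includes enzymes that make the messenger that activates RNase L, and line 33 exceeded both other KO lines in 6 of 6. Oasl2 had the highest CPM of this role. It was at 8.90, 11.7 and 6.65 CPM in WT lines 36, 47 and 78 and at 12.6, 5.53 and 2.89 CPM in KO lines 33, 41 and 72. The top line and the bottom line were both HAT1 KO (log2 fold change -0.38, SE 0.527, edgeR adjusted p = 0.789). Oasl1, which restrains translation of Irf7 mRNA, was at 0.239, 0.547 and 0.303 CPM in WT lines 36, 47 and 78 and at 1.10, 0.237 and 0.0778 CPM in KO lines 33, 41 and 72. The lowest of these values rested on 6 counts, which may stand for fewer fragments, since 75.1% of the nonzero counts up to 10 in the table were even, against 55.0% of those above 100 and up to 1000. Whether a read pair was counted as 2 reads is not given in the sources used here. For Oasl1 the log2 fold change was 0.39 (SE 0.912, edgeR adjusted p = 0.879). None of the 6 passed the test with all lines. Without line 33, where 8.09% of all tested genes were called lower, 3 of 6 did (Oas1a, Oas2 and Oasl2). That line was left out for its high values, so this count is no separate evidence of a fall. Oas1a and Oas1g share 57.6% and 45.7% of their 50-base stretches with transcripts of other genes, mainly each other, so the split of counts between these 2 is uncertain.

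In the ISG15 system, Isg15 encodes a ubiquitin-like modifier and Usp18 the protease that removes it. Isg15 was at 6.15, 7.35 and 3.90 CPM in WT lines 36, 47 and 78 and at 11.9, 4.82 and 5.39 CPM in KO lines 33, 41 and 72. Usp18 was at 4.53, 5.73 and 3.76 CPM and at 8.46, 3.30 and 2.5 CPM in the same order. Line 33 had the highest level of both genes, and the means of the genotypes were close for Usp18, at 4.67 ± 0.991 CPM in HAT1 WT and 4.75 ± 3.23 CPM in HAT1 KO (SD, n = 3 each). Trim25, a ubiquitin ligase that acts on RIG-I, was at 88.8, 93.7 and 93.3 CPM in WT lines 36, 47 and 78 and at 94.7, 80.4 and 63.7 CPM in KO lines 33, 41 and 72. Its log2 fold change was -0.21 (SE 0.142, edgeR adjusted p = 0.553).

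Of the IFIT genes, whose products bind viral RNA ends, Ifit1 followed the line pattern, with 10.9 CPM in line 33 against 4.54 and 4.51 CPM in lines 41 and 72 and 5.68 to 7.13 CPM in the WT lines. Ifit3 and Ifit3b share 51.2% and 45.0% of their 50-base stretches with other transcripts, mainly each other, and neither passed the test. Ifit2 was flat beside them, with a range between lines of 0.196 on the log2 scale.

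Among the PARP genes and Dtx3l, the log2 fold changes other than that of Parp14 lay between -0.24 and 0.00804, and none of the 3 passed the test. Parp9 and Dtx3l, which encode partners in a ubiquitin ligase complex, overlap at 9.4% and 8.0% of their exon length on opposite strands. Dtx3l was at 31.0, 31.4 and 27.3 CPM in WT lines 36, 47 and 78 and at 30.5, 23.3 and 22.3 CPM in KO lines 33, 41 and 72. Line 33 lay within the WT range and the other KO lines below it.

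The other antiviral effectors had a negative estimate in 8 of 9 genes, and Samd9l was the member called. Ifitm3, which blocks fusion of viral and cell membranes, was the most abundant of the 49 genes per length, at 179 CPM per kilobase of exon in HAT1 WT and 188 in HAT1 KO. In CPM it was at 121, 122 and 122 in WT lines 36, 47 and 78 and at 183, 110 and 88.7 in KO lines 33, 41 and 72. The WT lines hardly differed while the KO lines lay on both sides of them (log2 fold change 0.064, SE 0.256, edgeR adjusted p = 0.929). Mx1, a gene of the dynamin-like GTPase family, was at 0.358, 0.882 and 0.334 CPM in WT lines 36, 47 and 78 and at 0.707, 0.296 and 0.0778 CPM in KO lines 33, 41 and 72. Its log2 fold change was -0.53 (SE 0.794, edgeR adjusted p = 0.807), and the value of line 72 again rested on 6 counts. Cmpk2, a mitochondrial nucleotide kinase whose gene lies beside Rsad2, was at 3.20, 3.85 and 1.21 CPM in WT lines 36, 47 and 78 and at 2.62, 2.10 and 0.752 CPM in KO lines 33, 41 and 72. Here WT line 78 was below 2 of the KO lines (log2 fold change -0.59, SE 0.584, edgeR adjusted p = 0.687). Bst2, the tether that holds budding virions on the cell, was at 31.8 ± 9.11 CPM in HAT1 WT and 24.3 ± 5.48 CPM in HAT1 KO (SD, n = 3 each), a difference within the spread of the lines.

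All 4 transcription factors were highest in line 33 and lowest in line 41, by different amounts. Irf7, which drives the interferon alpha genes, was at 6.64, 6.76 and 6.52 CPM in WT lines 36, 47 and 78 and at 13.8, 3.82 and 5.81 CPM in KO lines 33, 41 and 72. Line 33 was far above WT lines that were nearly equal, and both other KO lines were below them (log2 fold change 0.24, SE 0.453, edgeR adjusted p = 0.851). Stat2, the partner of IRF9, was at 33.6, 33.9 and 33.9 CPM in WT lines 36, 47 and 78 and at 36.5, 24.8 and 29.8 CPM in KO lines 33, 41 and 72. Its log2 fold change was -0.15 (SE 0.141, edgeR adjusted p = 0.667). Irf1, whose printed promoter stretch holds the GAS letters and no ISRE core, had the smallest range of the 49 genes, from 16.5 to 17.9 CPM.

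The guanylate-binding proteins and immunity-related GTPases act in defence against intracellular pathogens, and 0 of 6 passed the test. Irgm1 had the highest CPM of this role, at 38, 39.5 and 24.8 CPM in WT lines 36, 47 and 78 and 37.3, 30.3 and 26.4 CPM in KO lines 33, 41 and 72. The lines of the genotypes overlapped fully, and WT line 78 was the lowest of the 6 (log2 fold change -0.12, SE 0.212, edgeR adjusted p = 0.838). Iigp1 had the widest range, at 1.62, 1.45 and 1.91 CPM in WT lines 36, 47 and 78 and 3.86, 1.57 and 0.311 CPM in KO lines 33, 41 and 72. The WT lines lay between the extremes of the KO lines (log2 fold change 0.21, SE 0.775, edgeR adjusted p = 0.924). Without line 33, Gbp7 (log2 fold change -0.87, SE 0.226) and Igtp (log2 fold change -0.52, SE 0.161) passed an unadjusted p of 0.05, with edgeR adjusted p-values of 0.259 and 0.329. These 2 calls leave out a line chosen for its high values and are no separate evidence of a fall.

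Psmb8, the other immunoproteasome subunit of the group, was at 5.89, 6.60 and 5.26 CPM in WT lines 36, 47 and 78 and at 6.16, 4.16 and 4.08 CPM in KO lines 33, 41 and 72. Line 33 was inside the WT range, unlike for Psmb9, and the log2 fold change was -0.30 (SE 0.207, edgeR adjusted p = 0.555). Of its exon length 14.7% is shared with a neighbouring gene model, so part of its counts is uncertain.

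Among the mitochondrial, apoptotic and secreted products 0 of 5 passed the test, with or without line 33. Lgals3bp, a secreted glycoprotein, was at 126, 144 and 120 CPM in WT lines 36, 47 and 78 and at 138, 88.6 and 156 CPM in KO lines 33, 41 and 72. It was highest in line 72, where most of the group was lowest (log2 fold change -0.031, SE 0.208, edgeR adjusted p = 0.96). Ifi44 was at 2.63, 3.18 and 10.2 CPM in WT lines 36, 47 and 78 and at 12.1, 1.54 and 5.60 CPM in KO lines 33, 41 and 72. One line of each genotype was high for Ifi44 and the genotypes overlapped (log2 fold change 0.26, SE 0.821, edgeR adjusted p = 0.907). Xaf1, which promotes apoptosis, was at 5.67 CPM in line 33 and between 2.42 and 3.47 CPM in the other lines.

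**Figure D4:**
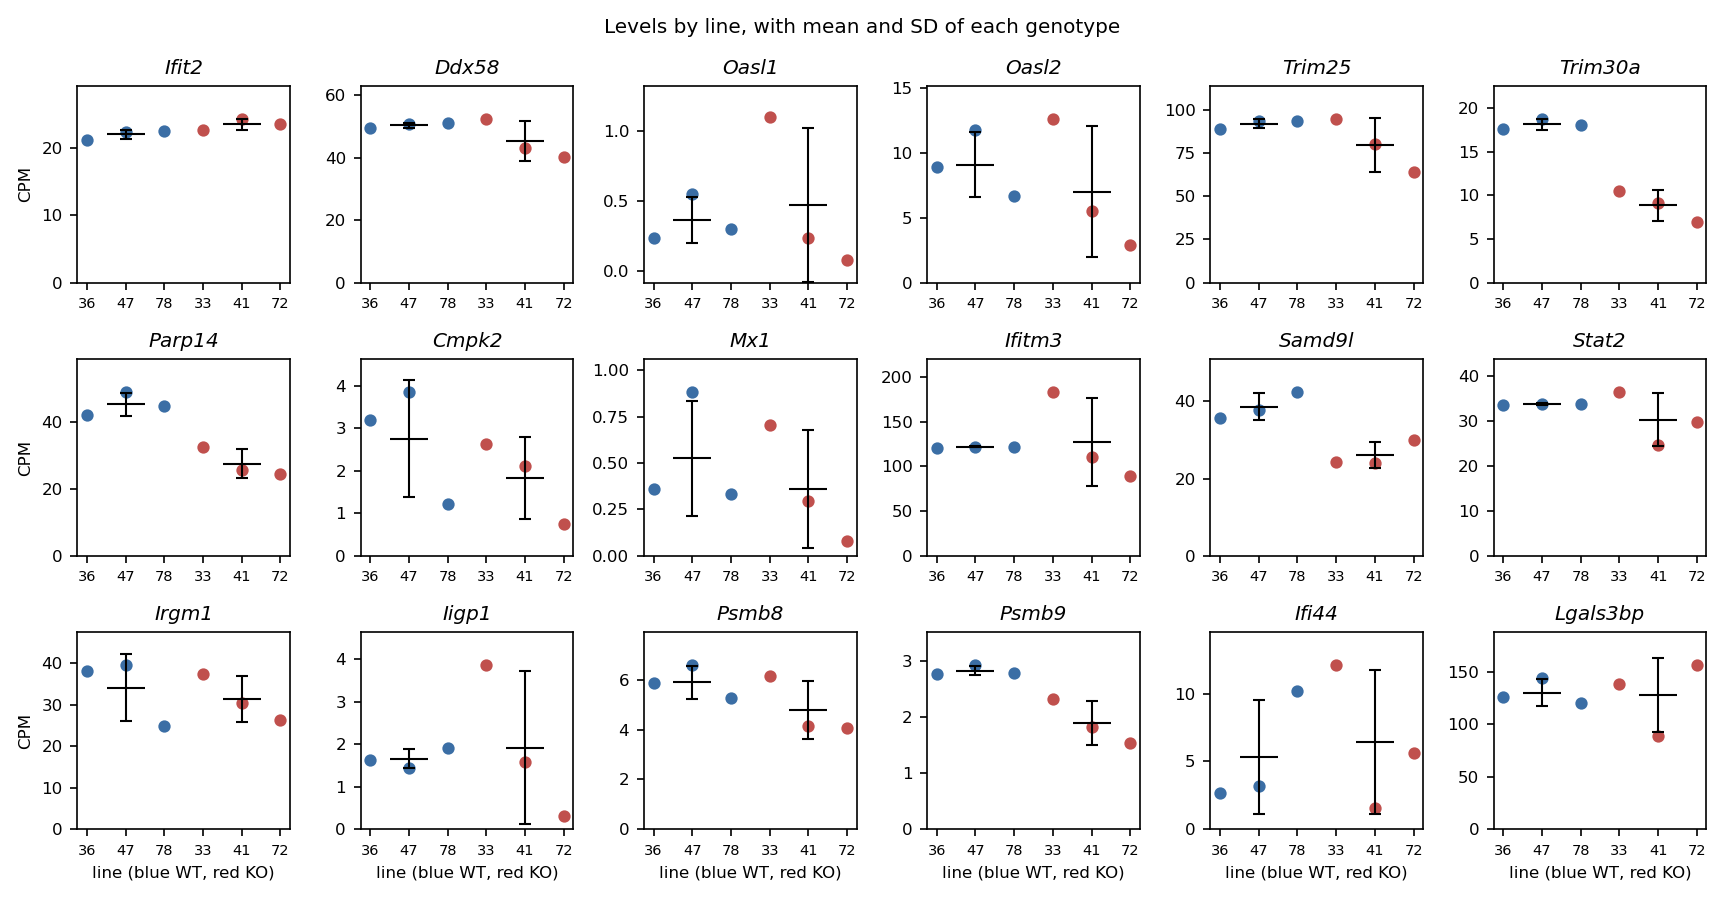
Level in CPM (vertical axes, each from 0 or below where the SD bar crosses it) by line (horizontal axes, blue WT, red KO) for the 18 members with an unadjusted p under 0.05, the highest CPM of their role or the widest range, with the mean and SD of 3 lines per genotype in black. Trim30a, Parp14, Samd9l and Psmb9 separate the genotypes, while Iigp1 and Oasl2 have their highest and lowest lines both in HAT1 KO.

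The pathway above these genes showed another pattern. Of 15 listed interferon ligand genes, Ifnk and Ifnz had counts to report, at 0 to 0.0745 and 0.0259 to 0.298 CPM. Neither passed the filter on low counts, so they were not tested, and the others were not found in the count table by symbol. Of the 6 receptor chains 5 passed an unadjusted p of 0.05, all lower in HAT1 KO with no overlap of lines, against 8.77% of all tested genes called lower, and 0 passed an adjusted p of 0.05. All of these but Ifngr1 lie close together on chromosome 16, between 91372783 (Ifnar2) and 91565623 (Ifngr2). Ifnar2 and Il10rb also share 9.46% and 14.9% of their exon length with other gene models, Gm21970 in both. Whether these calls are independent was not tested. Ifngr1, the binding chain of the interferon gamma receptor, was at 85.8, 85.7 and 94.8 CPM in WT lines 36, 47 and 78 and at 66.3, 65.0 and 57.0 CPM in KO lines 33, 41 and 72. All 3 KO lines were low, line 33 included (log2 fold change -0.50, SE 0.083, edgeR adjusted p = 0.0772). Il10rb, shared by the interferon lambda and interleukin receptors, had a log2 fold change of -0.57 (SE 0.122), and line 33 was its lowest line at 19.4 CPM. Smaller falls at an unadjusted p under 0.05 were found for both chains of the interferon alpha and beta receptor, Ifnar1 (-0.27) and Ifnar2 (-0.22), and for Ifngr2 (-0.17), with edgeR adjusted p-values between 0.238 and 0.319. Ifngr1 and Il10rb were called in all 15 alternatives. The call of Ifnar1 was lost in 3 of 15 (without WT line 78, KO line 41 or KO line 72), and that of Ifnar2 in 9, among them lane in the model and leaving out any single line but KO line 33. The call of Ifngr2 was lost in 6, with lane in the model, with the lines of few Y-linked counts and without WT line 36, WT line 47, KO line 33 or KO line 41. Ifnlr1 was at 0.467 CPM or less in every line and did not pass.

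Among the kinases and STATs, Tyk2 passed an unadjusted p of 0.05 (log2 fold change -0.23, SE 0.0848, edgeR adjusted p = 0.305), and Jak1, Jak2 and Stat3 did not, at log2 fold changes of 0.0733, -0.16 and -0.00776. The call of Tyk2 was lost in 7 of 15 alternatives, among them lane in the model and leaving out WT line 36, WT line 47, KO line 41 or KO line 72. Of 19 genes of the nucleic acid sensing pathways upstream of interferon, 5 passed, all lower in HAT1 KO (8.77% of all tested genes were called lower). They were Tbk1 (-0.24), Ikbke (-0.36), Irf5 (-0.57), Irf8 (-0.90) and Tlr7 (-0.69), and Irf5 also passed an adjusted p of 0.05 in edgeR (0.0472). Of 8 inhibitors of the pathway 2 passed, both lower and against the same background, the phosphatase Ptpn6 (-0.67, edgeR adjusted p = 0.0357) and Irf2 (-0.25, edgeR adjusted p = 0.276). The calls of Irf5, Irf8 and Ptpn6 held in all 15 alternatives, while those of Irf2, Ikbke, Tbk1 and Tlr7 were lost in 7, 4, 3 and 1 of them. Irf5, Irf8, Tlr7 and Ptpn6 are known for expression in blood-derived cells, and the macrophage markers were lower in the same 3 KO lines as these genes and the receptors. The part of such cells in these differences was not tested.

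The macrophage markers did not follow the line pattern of the 49 genes. Line 33 exceeded both other KO lines in 4 of 16 markers, against 44 of the 49 interferon-stimulated genes, and its summed marker level (3465.1 CPM) lay between those of lines 72 and 41. The marker sum in line 33 was below all WT lines, whereas its median deviation over the 49 genes was above all of them. The part of macrophage content in the line pattern was not tested.

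**Figure D5:**
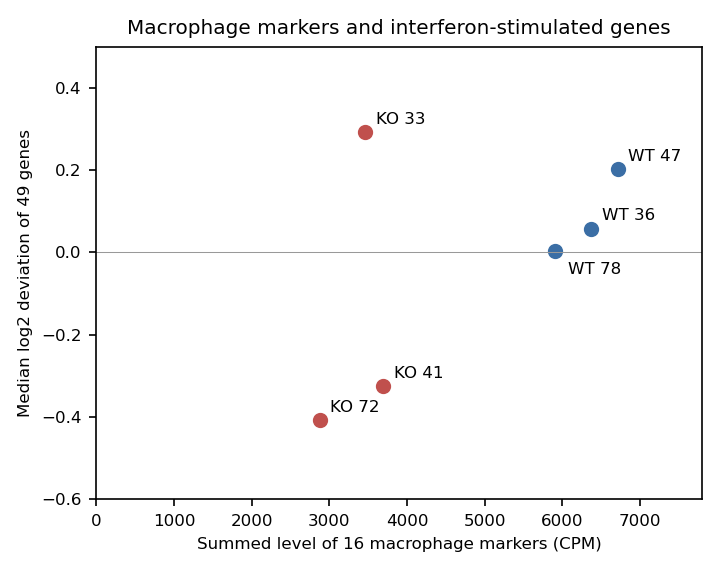
Median log2 deviation of the 49 interferon-stimulated genes (vertical axis) against the summed CPM of 16 macrophage markers (horizontal axis) in each MEF line (blue WT, red KO). The 3 KO lines sit together at 2874.7 to 3694.6 CPM but are split on the vertical axis, with KO 33 at 0.292 and KO 41 and KO 72 at -0.326 and -0.408.

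The lines were also compared within sequencing lanes. WT line 47 and KO lines 33 and 72 carried lane 6 in the labels, and over the 49 genes the median difference of line 47 from line 33 was -0.0826 and from line 72 was 0.579 on the log2 scale. Lines 47 and 33 had the highest median deviation of their genotypes, while line 72 of the same lane had the lowest of all lines. The part of lane in the pattern was not tested. In lane 7, WT line 78 exceeded KO line 41 by a median of 0.321. WT line 36 was the only line of lane 8, so in a fit with lane it could not inform the difference between genotypes. With lane in the model 3 of the 49 genes passed an unadjusted p of 0.05 in edgeR, all lower (background 4.91%), and Psmb9 did not. With the lines of few Y-linked counts alone (WT line 78 against the 3 KO lines, so that the lone WT line is assumed to vary like the KO lines) 3 genes were again called lower (background 3.84%), and in both fits they were Trim30a, Parp14 and Samd9l.

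The line pattern was set beside the promoter motifs with no test. The median difference between line 33 and the mean of lines 41 and 72 was 0.630 on the log2 scale for the 20 genes with a core, 0.475 for the 18 with a window and no core, and 1.34 for the 11 without a window. Line 33 exceeded both other KO lines in 19 of 20, 14 of 18 and 11 of 11 of these genes. The levels of the 3 sets differ, so these medians are a description.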

How the data were processed

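RNA was sequenced from 3 HAT1 WT and 3 HAT1 KO pMEF lines with the TruSeq RNA kit, which does not mark strand, and groups were taken from the genotype label. The authors deposited raw read counts per gene, with no normalization. The deposited table also held the authors' own comparison, with log2 values, an F score, p-values and q-values, which were not used. The submitters' processing notes name edgeR and mm10, while the aligner, the counter and its use of strand are not given in the sources used here.

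Ensembl identifiers gave the GENCODE M21 entry of each gene. Counts were filtered with filterByExpr, scaled by TMM and tested with glmQLFit and glmQLFTest in edgeR 4.0.16, with genotype alone, two-sided, with Benjamini-Hochberg adjustment over 14773 genes at a threshold of 0.05. SEs are the log2 fold change over the square root of F and are approximate. Log2 CPM used a prior count of 2, and levels per length used the union of exons. Exact permutation of 3 against 3 lines cannot give a p under 0.1 for a single gene. The fit was tested on simulated data. DESeq2 1.42.0 and voom from limma 3.58.1 were alternatives, beside other scalings, filters, lane, counts halved because low counts were mostly even, lines of few Y-linked counts and leaving out each line. The 49 members and the lists were chosen with earlier results of these data known. One gene of the pathway lists is not reported here. Values in every line were given by rule for members with an unadjusted p under 0.05, the highest CPM of their role or the 5 widest ranges, and those of Isg15, Usp18, Dtx3l and Irf7 were added after their values were seen. The weakest member rested on 212 counts over 6 lines, so counting error bears mainly on the lowest members and the spread between lines on the others.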

Additional observations from a re-analysis of the deposited data

How the results depend on the processing

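Of the 4 called genes, Trim30a, Parp14 and Samd9l stayed lower at an unadjusted p under 0.05 in every alternative, and Psmb9 lost that call in 7. With an adjusted p, 3 genes were called by the DESeq2 Wald test and 3 by voom with sample quality weights, against 0 in the reported fit, and leaving out each line in turn gave 0 to 1 (Trim30a, without KO line 72). Leaving out each line gave 3 to 21 calls at an unadjusted p and a median log2 fold change of -0.522 to -0.0209, with 21 calls and the lowest median arising without KO line 33 and 3 or 4 calls without any other line. Members with a negative estimate numbered 25 to 47 over all alternatives. The 14 uncalled members with values in every line by rule changed sign in 19 of 208 values, and the other uncalled members were not traced one by one. Of the 25 pathway and further interferon-induced genes called lower, calls were lost in 70 of 375 values, most often for Ifnar2 (9 of 15) and Trim21 (8 of 15). With lane in the model Oasl1 was at -0.0806 and Ifi44 at -0.45. With the lines of few Y-linked counts alone Oasl2 was at 0.0901, Cmpk2 at 0.60, Mx1 at 0.13, Irgm1 at 0.36, Ifi44 at -0.65 and Lgals3bp at 0.10. Over the fits without 1 line, Oasl1 ran from -1.21 to 0.91, Oasl2 from -1.11 to 0.00944, Mx1 from -1.49 to 0.0814, Ifitm3 from -0.29 to 0.28, Irgm1 from -0.30 to 0.00906, Iigp1 from -0.82 to 0.73, Ifi44 from -0.58 to 1.16 and Lgals3bp from -0.19 to 0.18. The cause was not tested. No paired analysis was possible because the genotypes share no line numbers.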

Other observations

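A further 54 tested genes known to be induced by interferon, outside the 49, had a median log2 fold change of -0.267, with 45 negative estimates. Of these 12 passed an unadjusted p of 0.05 in edgeR, all lower in HAT1 KO, against 8.77% of all tested genes called lower, and Trim12a also passed an adjusted p of 0.05 (0.0479). The 12 were Gbp9 (log2 fold change -1.13), Trim21 (-0.31), Trim12a (-0.96), Trim12c (-0.84), Trim5 (-1.29), Sp100 (-0.94), Tap2 (-0.30), Herc6 (-0.43), Slfn2 (-0.63), Znfx1 (-0.33), Ifi204 (-0.79) and Epsti1 (-0.77). Line 33 exceeded both other KO lines in 49 of the 54 genes (90.7%), against 32.5% of all tested genes, but it was above all WT lines in 21 and below all of them in 21.

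Trim30a lies among related tripartite-motif genes on chromosome 7, and 5 of 9 such genes within 1.5 Mb, Trim30a among them, passed an unadjusted p of 0.05, all lower, against 8.77% of all tested genes called lower. The set was chosen after the values of Trim30a were seen, and 4 remain without it. Trim30d, next to Trim30a, was at 6.10, 8.10 and 8.90 CPM in WT lines 36, 47 and 78 and at 3.87, 1.66 and 2.23 CPM in KO lines 33, 41 and 72 (log2 fold change -1.57, SE 0.342, edgeR adjusted p = 0.132). Trim3, at the edge of that stretch, was at 45.2 to 51.0 CPM in every line (log2 fold change 0.02, edgeR adjusted p = 0.904).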
